A study of Mus musculus with 8 samples.

Results

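Cell cycle and DNA replication genes are followed here in the RNA of mouse cortex with and without Nuak1, which encodes an AMPK-related kinase. The set is a list of 43 gene symbols: the cyclins and kinases that move cells through G1, the enzymes of DNA replication, the machinery of mitosis, and the CDK inhibitors that hold the cycle back. Members are the rows of the count table that carry a listed symbol and hold at least 80 counts over the 8 libraries. That rule found 41 of the 43 genes among 21165 rows, and all 41 were among the 12699 genes with enough counts to be tested. They are 8 genes of G1, 13 of replication, 17 of mitosis and 3 CDK inhibitors. Cdk1 and Cdc45 are in the table only under their older symbols Cdc2a and Cdc45l; their values are given below, but they are not in the counts of members.

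Cortices were dissected at E18.5 from 4 embryos of a constitutive Nuak1 KO line and 4 WT embryos on a C57Bl/6JRj background, with no treatment in either group. Loss of the gene affects every cell of the embryo, and the KO is lethal at birth, so no later stage was sampled. The labels give 2 males and 2 females for the KO and 1 male and 3 females for the WT. They name 3 litters, where the series' design text gives 4. The libraries (R1 to R4 of each genotype) are named by genotype and number alone, so their names tie none to a sex or a litter. Neither entered the fit, and p-values cover the spread between these samples. Polyadenylated RNA was sequenced and each value is the number of reads assigned to a gene, with totals from 9643711 (WT library R4) to 27014858 (KO library R3) counts. Below, a normalized count is a count scaled to the mean library size after TMM normalization. Nuak1 itself was at 20.5, 13.7, 11.1 and 11.5 normalized counts in the KO libraries and at 1377, 1445, 1118 and 877 in the WT libraries, which matches the labels. The 8 cortical neuron markers tested had a summed level of 43061 to 48576 in the KO and 37752 to 45573 in the WT libraries. The KO library R1 stood apart in meningeal fibroblast markers, whose sum was 9496 normalized counts there, 321 to 490 in the other KO libraries and 258 to 363 in the WT libraries. It was also the highest library in all 8 endothelial markers (sum 4633, against 2743 to 3541 in the other 7 libraries) and all 6 microglia markers (sum 908, against 444 to 640).

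A cell enters the cycle when D-type cyclins with CDK4 or CDK6, and then cyclin E with CDK2, inactivate the retinoblastoma protein and free E2F factors, which switch on the genes of DNA replication. The MCM helicase is loaded onto origins by CDC6 and CDT1 and unwinds DNA in S phase, and cyclin B with CDK1 then drives mitosis, whose genes are switched on later. In the cortex late in gestation most cells are neurons that have left the cycle, and dividing cells are radial glia, intermediate progenitors, glial precursors and cells of vessels and meninges. In bulk tissue, fewer cycling cells and less RNA per cycling cell cannot be told apart.

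The replication and mitosis genes also differ in the letters of their promoters, which is why 4 mitosis and 2 replication promoters are shown. The sequences are RefSeq promoters on the build GRCm38.p6, from 250 bases before to 50 bases after the annotated start, and 33 of the 43 listed genes had one. Ccnd1, Ccnd2, Ccne2, Mcm4, Gins2, Ccna2, Aurkb, Tpx2, Foxm1 and Cdkn1c had none. Both strands were searched for the CHR element (TTTGAA) and the CCAAT box (the letters of its name), which are known from promoters of G2 and mitosis genes, and for an E2F site (TTTCGCGC, TTTGGCGC or TTTCCCGC). Each stretch below is 120 bases long and reads 5′ to 3′ on the gene's strand, and the capitals mark these motifs on either strand, so that on the opposite strand the CHR element reads TTCAAA and the box reads ATTGG. Mki67, the proliferation marker Ki-67, is shown at chr7:135716460-135716579 (minus strand), from 200 to 81 bases before the start, and the other 5 are Top2a at chr11:99024190-99024309 (minus strand), Cdc20 at chr4:118437344-118437463 (minus strand), Cdk1 at chr10:69352913-69353032 (minus strand), Mcm5 at chr8:75109349-75109468 (plus strand) and Mcm6 at chr1:128359706-128359825 (minus strand).
Mki67: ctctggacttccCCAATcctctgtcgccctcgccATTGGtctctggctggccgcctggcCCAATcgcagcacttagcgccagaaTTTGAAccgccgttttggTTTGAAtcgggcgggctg
Top2a: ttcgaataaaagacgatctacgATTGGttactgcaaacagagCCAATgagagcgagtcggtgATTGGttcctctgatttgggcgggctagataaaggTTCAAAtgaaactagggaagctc
Cdc20: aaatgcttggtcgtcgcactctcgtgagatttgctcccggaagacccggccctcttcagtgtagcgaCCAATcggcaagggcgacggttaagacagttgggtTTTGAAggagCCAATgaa
Cdk1: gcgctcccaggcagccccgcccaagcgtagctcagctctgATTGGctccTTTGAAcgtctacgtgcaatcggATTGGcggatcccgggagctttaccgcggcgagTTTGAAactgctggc
Mcm5: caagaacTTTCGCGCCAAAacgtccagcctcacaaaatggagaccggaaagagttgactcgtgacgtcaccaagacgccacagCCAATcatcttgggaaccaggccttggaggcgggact
Mcm6: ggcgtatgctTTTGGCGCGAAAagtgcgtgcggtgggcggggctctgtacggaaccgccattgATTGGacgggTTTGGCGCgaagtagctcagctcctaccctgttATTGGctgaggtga
In these stretches the 4 mitosis genes hold CHR elements and CCAAT boxes, and Mcm5 and Mcm6, subunits of the helicase, hold E2F sites and CCAAT boxes. In Mcm5 and Mcm6 an E2F site on each strand overlap, which gives the long runs of capitals.

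Among the 14 mitosis genes with a promoter, 10 (71.4%) held a CHR element, 13 (92.9%) a CCAAT box and 10 (71.4%) both, while 1 (7.14%, Cdk1) held an E2F site. Among the 12 replication genes with a promoter, 2 (16.7%) held a CHR element, 9 (75%) a CCAAT box and 6 (50%) an E2F site. Of the 8813 promoters of genes tested, 11% held a CHR element, 38.8% a CCAAT box, 4.8% both and 3.6% an E2F site, and of all 27025 promoters the shares were 18.1%, 37.9%, 7.12% and 1.91%. None of the 5 G1 promoters and neither inhibitor promoter held a CHR element. A match is a run of letters and was not tested as a binding site.

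Per kilobase of annotated exon, the most abundant members were Cdk4, the G1 kinase, at 2455 normalized counts per kb, Pcna, the sliding clamp of DNA polymerase, at 1033, and the helicase subunit Mcm7 at 678. The subunits of ribonucleotide reductase, which makes deoxynucleotides, followed with 516 for Rrm1 and 432 for Rrm2. In mitosis the highest level per kb was that of Top2a, the topoisomerase that untangles chromosomes, at 353. Cdc6, the helicase loader, was lowest at 14.1 per kb, after Cdk6 at 20.7 and Gins2, a subunit of the active helicase, at 24.5. Annotated pseudogenes of Ccnb2 (Ccnb2-ps) and Pcna (Pcna-ps1 and Pcna-ps2) could share reads with these genes, so their levels are less certain. Only pseudogenes named after a member's symbol were looked for, so the other members may have some under other names.

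The mitosis genes had small negative fold changes in the KO, and the libraries of the genotypes overlapped. All 17 had a negative log2 fold change (KO minus WT), from -0.38 to -0.08 with a median of -0.23, where the median of all genes tested was -0.01 and 54.4% of them were negative. At an unadjusted p under 0.05 in edgeR's quasi-likelihood test, 1 of the 41 members was lower in the KO, Aurka, against 3.18% of all genes tested, and 0 were higher, against 4.51%. At an adjusted p under 0.05, 0 of the 41 were called by edgeR after Benjamini-Hochberg adjustment of its quasi-likelihood p-values (0.0709% of all genes), with 0.646 as the smallest adjusted p, and DESeq2 also called 0 (0.512% of all genes). In 0 of the 41 did the 4 KO libraries separate from the 4 WT libraries, against 4.49% of all genes.

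Aurka, the kinase that matures the spindle poles, was at 176, 141, 165 and 147 normalized counts in KO libraries R1 to R4 and at 188, 230, 258 and 139 in WT libraries R1 to R4. The KO libraries lay close together and the WT libraries R1 to R3 lay above all of them, while WT R4 was the lowest of the 8. Its mean was 157 ± 15.8 in the KO and 203 ± 51.9 in the WT (SD, n = 4 each). The log2 fold change was -0.38 (SE 0.17), with an unadjusted p of 0.0481 and an adjusted p of 0.646 in edgeR. In DESeq2 the unadjusted p was 0.0451. Mki67 was at 921, 667, 851 and 603 normalized counts in the KO and at 876, 1018, 1177 and 524 in the WT. Both the highest and the lowest library were WT, so the genotypes overlapped over the whole KO range. The means were 761 ± 150 and 899 ± 279 (SD, n = 4 each), and the log2 fold change was -0.25 (SE 0.21), with an adjusted p of 0.836 in edgeR. Top2a read 3339, 2671, 3380 and 2421 in the KO against 3418, 4059, 4088 and 2214 in the WT. Again WT R2 and R3 were highest and WT R4 lowest, and the log2 fold change of -0.23 (SE 0.17) had an adjusted p of 0.820 in edgeR.

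Of the other mitosis members, Birc5, the survivin subunit of the chromosomal passenger complex, had a log2 fold change of -0.35 (SE 0.18). Tpx2, which activates the Aurka kinase on the spindle, and Cenpe, a kinetochore motor, both had -0.30, and Ccna2, the cyclin of S phase and G2, had -0.29. The smallest differences were those of the mitotic cyclin Ccnb1 and of Aurkb, the kinase of the passenger complex, each at -0.08. Between these lay Plk1, Ccnb2, Cdc20, Ube2c, Bub1, Bub1b, Cenpf and Foxm1, a transcription factor of G2 genes (-0.11, SE 0.21). Cdk1, read under its older symbol, was at 609, 450.0, 576 and 449.9 normalized counts in the KO and at 510, 564, 628 and 392 in the WT. Its means were nearly level, 521 ± 83.3 and 523 ± 100 (SD, n = 4 each), and its log2 fold change was -0.01 (SE 0.15).

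**Figure D1:**
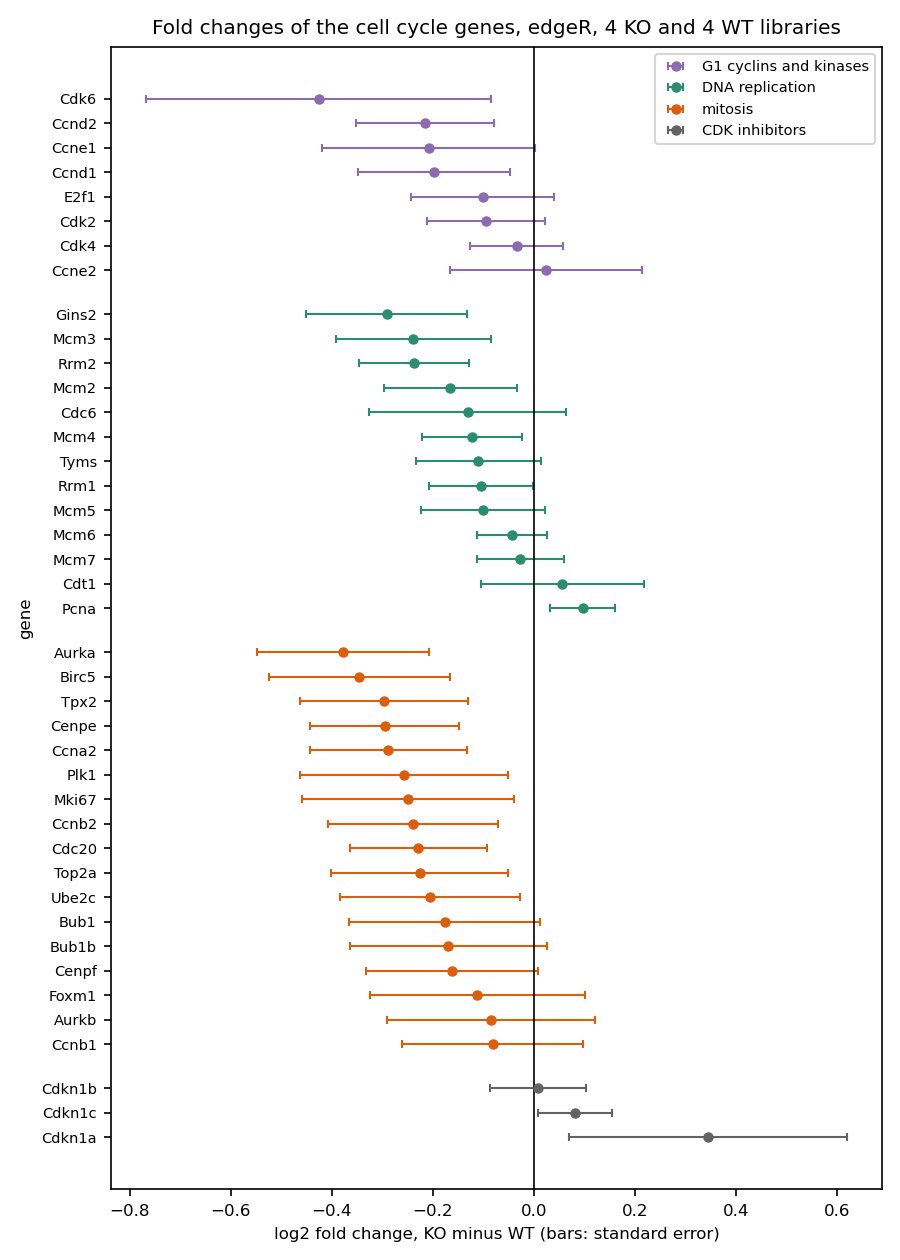
Log2 fold change (KO minus WT, x axis) of each of the 41 members with its standard error as a bar, from edgeR on 4 KO and 4 WT libraries, coloured by role. All 17 mitosis genes lie left of 0 between -0.38 and -0.08, the replication genes lie between -0.29 and 0.10, and the 3 CDK inhibitors lie to the right.

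The replication genes differed less. Of the 13 members, 11 had a negative log2 fold change, from -0.29 to 0.10 with a median of -0.11, and 0 were called in edgeR, while DESeq2 gave Rrm2 an unadjusted p of 0.0495 (2.7% of all genes were lower at an unadjusted p under 0.05 in DESeq2). Rrm2 was at 1157, 1156, 1071 and 1027 normalized counts in the KO and at 1234, 1454, 1484 and 1002 in the WT. The WT libraries R1 to R3 were above every KO library and WT R4 was below them all, and the log2 fold change was -0.24 (SE 0.11) with an unadjusted p of 0.0525 and an adjusted p of 0.652 in edgeR. Gins2 had the largest difference of the group, with 97.4, 65.4, 94.7 and 103 normalized counts in the KO against 127, 111, 108 and 96.3 in the WT, a log2 fold change of -0.29 (SE 0.16) and an adjusted p of 0.736 in edgeR. Here KO R2 was the low library, and WT R4 lay within the KO range.

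Mcm7 was at 3083, 2978, 2922 and 2927 in the KO, a narrow range, and at 2948, 3488, 3176 and 2496 in the WT, on both sides of it. Its log2 fold change was -0.03 (SE 0.09). The other helicase subunits ran from Mcm3 at -0.24 (SE 0.15) to Mcm6 at -0.04 (SE 0.07). Pcna read 2737, 2454, 2668 and 2399 in the KO and 2298, 2568, 2501 and 2216 in the WT, so that it was one of the few members with the higher mean in the KO (2564 ± 163 against 2396 ± 166, SD, n = 4 each). Its log2 fold change of 0.10 (SE 0.06) had an adjusted p of 0.788 in edgeR. Cdt1, the other loader, was the remaining replication member above 0, at 0.06 (SE 0.16), and Cdc45, a helicase partner read under its older symbol, was at -0.09 (SE 0.14).

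**Figure D2:**
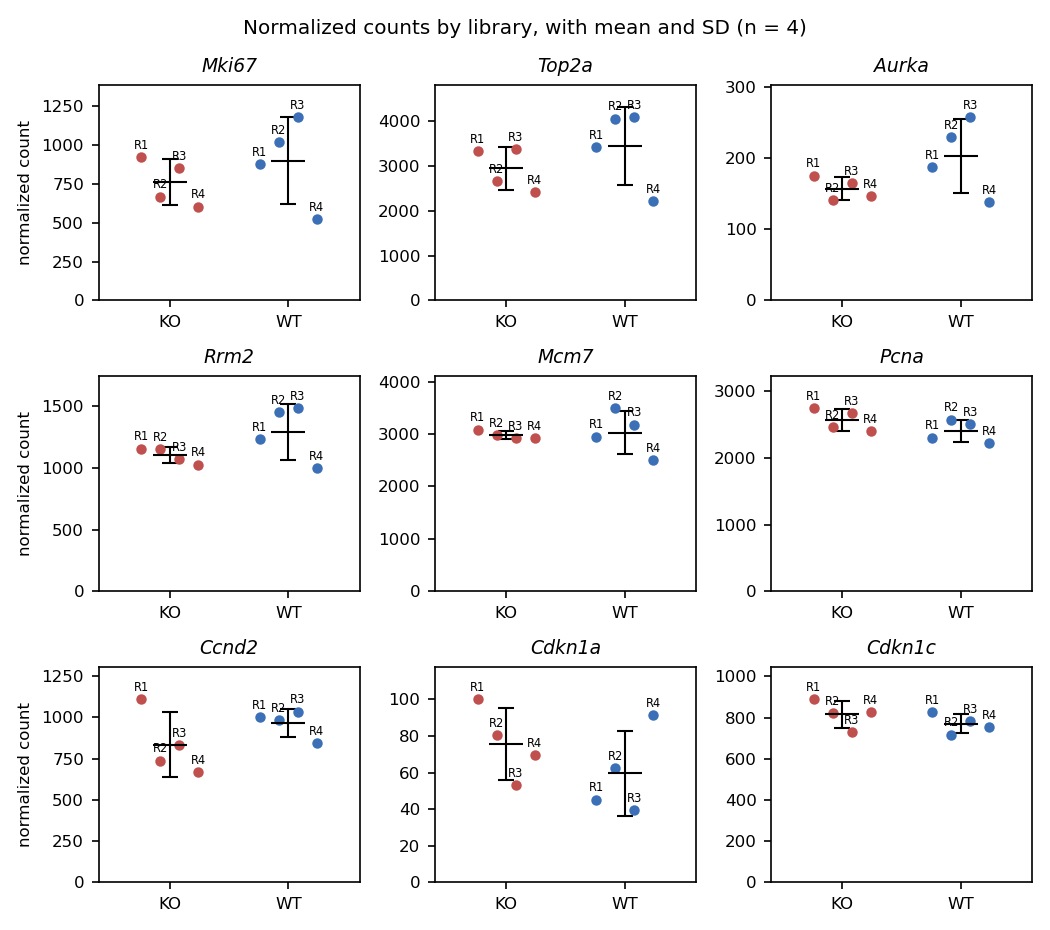
Normalized counts (y axes, from 0) of 9 members in each KO and WT library, labelled R1 to R4, with the mean as a horizontal line and the SD as a bar (n = 4 per genotype). In Mki67, Top2a, Aurka, Rrm2, Mcm7 and Pcna the WT library R4 is the lowest of the 8, whereas in Cdkn1a it is at 91.2, the highest WT library.

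Of the 8 G1 cyclins and kinases, 7 had a negative log2 fold change, from -0.43 to 0.02 with a median of -0.15, and 0 were called. The D-type cyclins, which couple growth signals to CDK4 and CDK6, had the same order of libraries in part. Ccnd1 was at 213, 134, 151 and 148 normalized counts in the KO and at 187, 160, 207 and 186 in the WT. Ccnd2 was at 1108, 737, 829 and 666 in the KO and at 1002, 982, 1033 and 843 in the WT. In both genes KO R1 was the highest of the 8 libraries and the other 3 KO libraries were below all 4 WT libraries. The log2 fold changes were -0.20 (SE 0.15) and -0.22 (SE 0.14), with adjusted p of 0.817 and 0.778 in edgeR. Without KO R1, the library with the high meningeal, endothelial and microglia markers, they were -0.34 and -0.37, with unadjusted p of 0.0182 and 0.0032 and adjusted p of 0.811 and 0.517 in edgeR. In that fit 4 members were lower at an unadjusted p under 0.05 (Ccnd1, Ccnd2, Aurka and Birc5, against 2.46% of all genes), and Ccnd1 and Ccnd2 were the 2 members whose genotypes did not overlap (6.74% of all genes). The part of meningeal cells, vessels or microglia in the levels of KO R1 was not tested.

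Cdk6 had the largest fold change of the G1 genes and the widest spread. It was at 82.0, 56.3, 82.9 and 45.2 normalized counts in the KO and at 63.7, 124, 126 and 38.8 in the WT, a 3.23-fold range among the WT libraries, and its log2 fold change of -0.43 (SE 0.34) had an adjusted p of 0.827 in edgeR. Cdk4 was at 8129, 7754, 8290.0 and 7368 in the KO and at 8311, 9072, 8423 and 6454 in the WT. Its means, 7885 ± 411 and 8065 ± 1125 (SD, n = 4 each), differed by less than the spread of either group. Cyclin E was at -0.21 for Ccne1 (SE 0.21) and 0.02 for Ccne2 (SE 0.19), its kinase Cdk2 at -0.09 (SE 0.12), and the transcription factor E2f1 at -0.10 (SE 0.14), all as log2 fold changes.

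The 3 CDK inhibitors had positive log2 fold changes and 0 were called. Cdkn1a, the p53 target p21, was at 99.9, 80.6, 53.2 and 69.5 normalized counts in the KO and at 45.2, 62.2, 39.6 and 91.2 in the WT. WT R4 was the second highest of the 8 libraries and the genotypes overlapped, with a log2 fold change of 0.35 (SE 0.28) and an adjusted p of 0.827 in edgeR. Cdkn1b, the inhibitor p27, was at 1427, 1308, 1461 and 1242 in the KO and at 1376, 1475, 1459 and 1083 in the WT, and its log2 fold change was 0.01 (SE 0.10). Cdkn1c, the imprinted inhibitor p57, was at 888, 823, 730 and 825 in the KO and at 827, 718, 781 and 753 in the WT. Its log2 fold change was 0.08 (SE 0.07), with an adjusted p of 0.849 in edgeR.

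The members moved together from library to library, above all the mitosis genes. In 16 of the 17 mitosis members (94.1%) the 3 lowest libraries were WT R4, KO R4 and KO R2, a set of libraries named after the values were seen. The same 3 libraries were the lowest in 6 of 13 replication members (46.2%), in 28 of all 41 members (68.3%) and in 3.94% of all genes tested. The highest library of every mitosis member was WT R2 (7 genes) or WT R3 (10 genes). As deviations from the mean of the 8 libraries, on the log2 scale, the medians of the mitosis genes were 0.14, -0.23, 0.08 and -0.33 in KO R1 to R4 and 0.07, 0.34, 0.40 and -0.41 in WT R1 to R4. The WT libraries thus held both ends of the range, and the KO libraries lay between them. For replication genes the medians were 0.11, -0.13, 0.03 and -0.17 in the KO and 0.06, 0.22, 0.16 and -0.26 in the WT, the same signs in every library with smaller sizes.

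**Figure D3:**
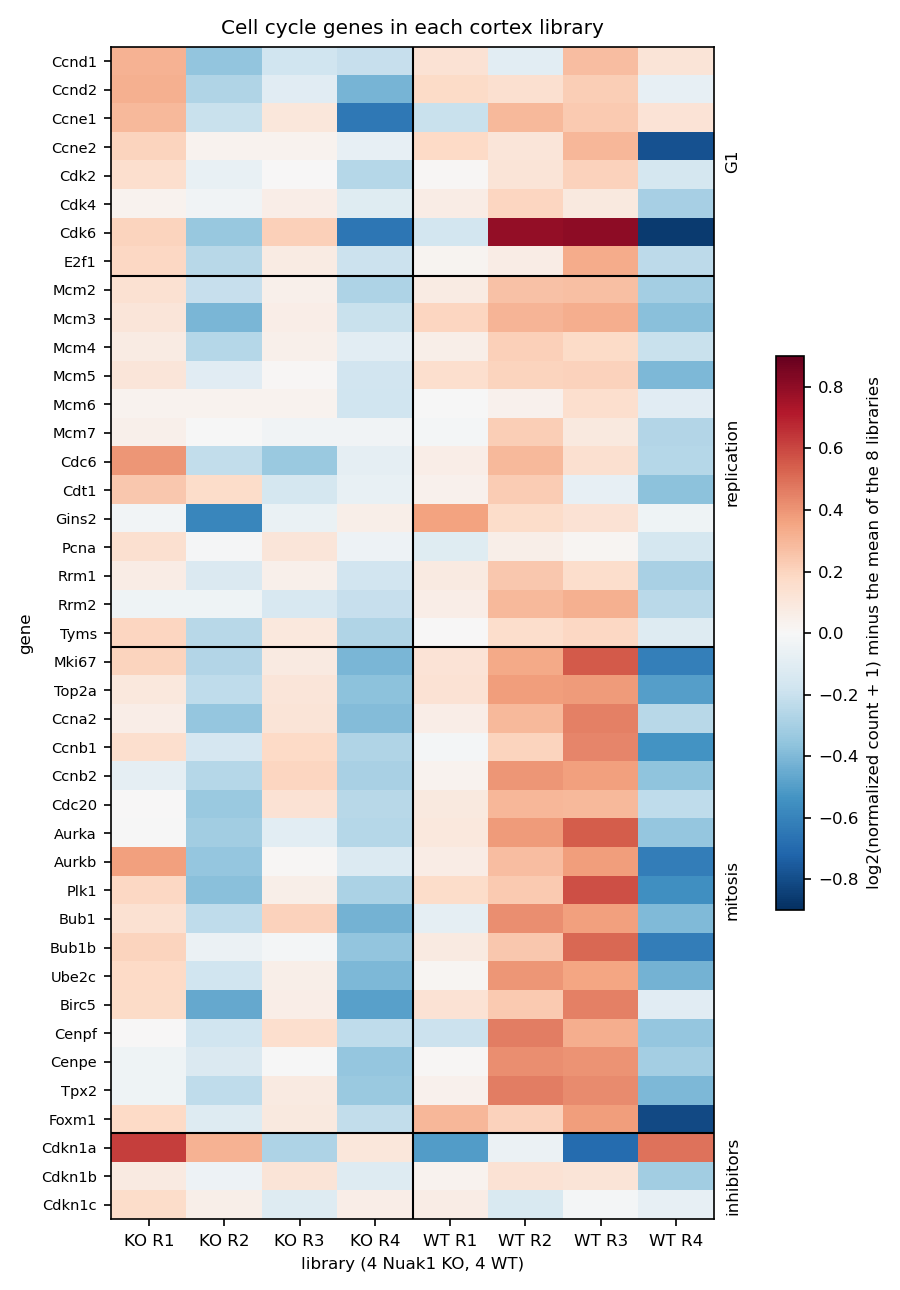
Each row is 1 of the 41 members and each column a library, and the colour is log2(normalized count + 1) minus the mean of the 8 libraries (red above, blue below). The mitosis block is red in WT R2 and R3 and blue in WT R4, KO R4 and KO R2, while Cdkn1a is blue in WT R1 and R3 and red in KO R1 and WT R4.

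For the mitosis genes this spread was wider among the WT than among the KO libraries. The fold from the lowest to the highest WT library ran from 1.44 to 2.29 over the 17 mitosis genes, with a median of 1.82, and from 1.24 to 1.65 among the KO libraries, with a median of 1.40. The SD of the log2 values was larger in the WT in 16 of the 17 mitosis genes (94.1%), against 61.3% of all genes tested. For the replication genes the share was nearer to that of all genes, with 9 of 13 (69.2%). It was 4 of 8 (50%) for the G1 genes and 2 of 3 (66.7%) for the CDK inhibitors. Over all genes the median folds from lowest to highest library were 1.26 in the WT and 1.20 in the KO.

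The number of members called moved with the libraries in the fit, and most without WT R4, which also had the smallest total. WT R4 was the lowest of the 8 libraries in 23 of the 41 members (56.1%, against 20.6% of all genes tested). Leaving it out therefore raises the WT mean of those members by construction. Because the members moved together, their calls in that fit are not separate results. Aurka, the member called with all 8 libraries, was also lower at an unadjusted p under 0.05 without WT R4 or KO R1, while without any of the other 6 its unadjusted p was 0.055 to 0.170 in edgeR. Without WT R4, in edgeR's quasi-likelihood test on 4 KO and 3 WT libraries, 20 of the 41 members were lower at an unadjusted p under 0.05, against 5.4% of all genes, and 1 was higher, Cdkn1a, against 7.05%. The 20 were 13 of the 17 mitosis genes, 6 of the 13 replication genes (Mcm2, Mcm3, Mcm4, Mcm5, Rrm1 and Rrm2) and Cdk6. Still 0 members had an adjusted p under 0.05 (0.0854% of all genes), the smallest being 0.174 for Rrm2 in edgeR with Benjamini-Hochberg adjustment. In 9 members the KO libraries were all below the 3 remaining WT libraries, against 11.9% of all genes without overlap in either direction. These were Mcm3, Mcm5, Gins2, Rrm1, Rrm2, Top2a, Aurka, Cenpe and Foxm1.

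In that fit the log2 fold change of Rrm2 was -0.33 (unadjusted p 0.0011), that of Aurka -0.51 (0.0026), that of Top2a -0.38 (0.0076) and that of Mki67 -0.42 (0.015), all in edgeR. The medians were -0.36 for mitosis and -0.19 for replication. Leaving out the WT library R3, one of the high ones, had the opposite effect: 0 members were lower at an unadjusted p under 0.05 and the medians were -0.12 and -0.07. The count was also 0 without KO R2, KO R4, WT R1 or WT R2, and it was 2 without KO R3. In each of these fits the medians of both groups stayed below 0.

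**Figure D4:**
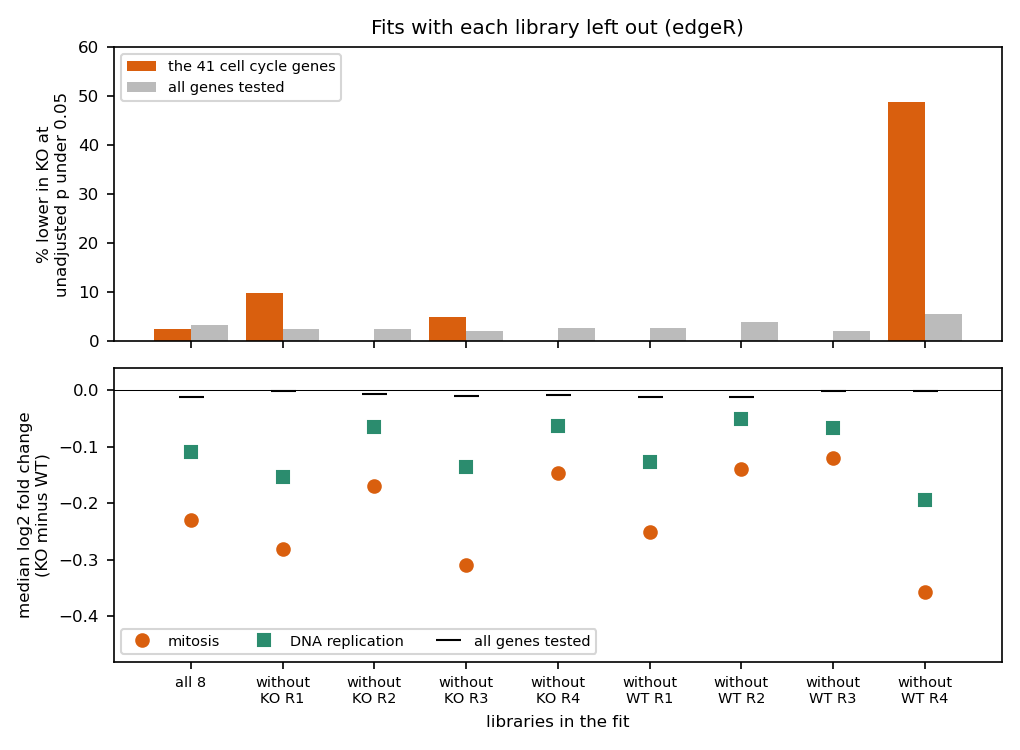
Fits with all 8 libraries and with each library left out in turn (x axis). Upper plot, the percent of the 41 members and of all genes tested that were lower in the KO at an unadjusted p under 0.05, which is far above the background without WT R4 (20 of 41). WT R4 was the lowest of the 8 libraries in 23 of the 41 members. Lower plot, the median log2 fold change of the mitosis genes, the replication genes and all genes tested, with the mitosis median between -0.36 and -0.12.

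Genes of the same processes outside the set were taken from lists of known components. Of 49 other mitosis genes tested, 47 had a negative log2 fold change, with a median of -0.20. At an unadjusted p under 0.05 in edgeR, 1 of the 49 was lower, against 3.18% of all genes. This was Nek2, a kinase of the centrosome, at 75.6, 66.9, 82.3 and 68.8 normalized counts in the KO and 103, 104, 114 and 94.6 in the WT. All 4 KO libraries were below all 4 WT libraries, WT R4 included, with a log2 fold change of -0.50 (SE 0.13), an unadjusted p of 0.0033 and an adjusted p of 0.44 in edgeR. Nek2 was the 1 gene of the 49 without overlap between genotypes, against 4.49% of all genes. The 3 lowest libraries were again WT R4, KO R4 and KO R2 in 38 of the 49 genes (77.6%).

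Of 43 other replication genes, 3 were lower and 1 was higher at an unadjusted p under 0.05, against 3.18% and 4.51% of all genes, and the median log2 fold change was -0.05. The lower genes were Clspn, which relays the replication checkpoint, at -0.42 (unadjusted p 0.0343 in edgeR), the replication initiator Mcm10 at -0.41 (0.0323) and Pole, the leading-strand polymerase, at -0.26 (0.0199). The higher gene was Orc5, a subunit of the origin recognition complex, at 0.14 (0.0346). The genotypes did not overlap in 3 of the 43 genes, against 4.49% of all genes: Orc5 and its partner Orc6 (0.11, SE 0.05), both read under older symbols, were higher in every KO library, and the DNA ligase gene Lig1 (-0.12, SE 0.06) was lower. In Orc6 the gap was narrow, with 1134 normalized counts in KO R2 against 1133 in WT R2. The gap in Lig1 was narrow too, with 1123 in KO R3 against 1125 in WT R4. Orc6 and Lig1 were named after their values were seen. Of 25 other cell cycle control genes tested, 2 were lower at an unadjusted p under 0.05, against 3.18% of all genes. These were the retinoblastoma gene Rb1 at -0.20 (unadjusted p 0.0317 in edgeR) and the p53 ligase Mdm2 at -0.21 (0.0194). The median of the 25 was -0.09. At an adjusted p under 0.05, 0 genes of these 3 lists were called in edgeR.

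Markers of dividing cell types were read beside these genes. In 4 of the 5 intermediate progenitor markers tested, the 3 lowest libraries were WT R4, KO R4 and KO R2, as in the mitosis genes (3.94% of all genes tested). Of 7 such markers 5 were tested (Insm1 had too few counts and Neurog1 no row), 0 were called and their median log2 fold change was -0.21. Their summed level was 957 to 1479 normalized counts in the KO libraries and 725 to 1946 in the WT libraries. Eomes, the transcription factor that defines these cells, was at 883, 681, 905 and 585 in the KO and at 852, 1229, 1193 and 375 in the WT. WT R4 was thus the lowest library, with KO R4 and KO R2 next, as in the mitosis genes. Neurog2, which drives neuron formation, was at 150, 122, 88.5 and 53.3 in the KO and at 117, 179, 180 and 59.1 in the WT. It was the exception, with KO R4 lowest and KO R3 below KO R2. Btg2 was highest in KO R3, at 82.3, and had a log2 fold change of 0.05.

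Over the 10 radial glia markers the median log2 fold change was -0.10. At an unadjusted p under 0.05, 1 was lower, against 3.18% of all genes: the glutamate transporter gene Slc1a3 at -0.30 (0.0224 in edgeR). Their sums were 24148 to 28177 in the KO and 22217 to 31987 in the WT. Their median deviation in WT R4 was 0.05, where that of the mitosis genes was -0.41. That median covers markers that split in WT R4. It was the lowest of the 8 libraries for Pax6, Vim and Notch1 and the highest for Sox2, Hes5, Slc1a3, Fabp7 and Hopx. The 5 oligodendrocyte precursor markers had their highest median deviation, 0.42, in WT R4, with sums of 1044 to 1564 in the KO and 899 to 1542 in the WT, and 0 were called. Of 5 ganglionic eminence markers 3 were tested, and their median log2 fold change was -0.18. The part of any of these cell types in the levels of the cell cycle genes was not tested. Of the lists for cells outside the neural lineage, the 5 meningeal markers tested had a median log2 fold change of 2.93 (5 higher at an unadjusted p under 0.05 in edgeR, and 0 in DESeq2, with KO R1 the highest library in each), the 8 endothelial markers 0.24 (2 higher in edgeR, 3 in DESeq2), the 6 microglia markers 0.12 (0 called) and the 5 red blood cell markers 0.29 (1 higher). A gene that DESeq2 left without a p-value counts as not called, so its 0 for the meningeal markers need not be a test result. Of all genes, 4.51% were higher at an unadjusted p under 0.05 in edgeR, and 572 of 12699 in DESeq2. Choroid plexus markers did not reach the count filter (0 of 4).

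**Figure D5:**
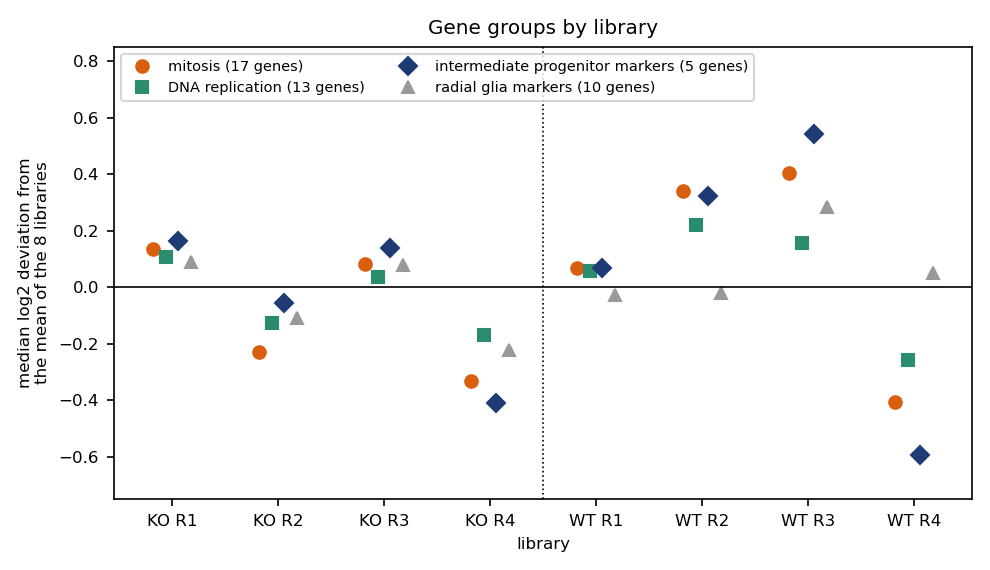
Median deviation from the mean of the 8 libraries, on the log2 scale (y axis), of the mitosis genes, the replication genes, the intermediate progenitor markers and the radial glia markers in each library (x axis; KO left and WT right of the dotted line). In WT R4 the mitosis genes are at -0.41 and the intermediate progenitor markers at -0.59. The radial glia markers are at 0.05 there, a median over a list that held both low and high markers in that library.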

How the data were processed

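The deposited file is a table of raw counts per gene symbol, which the authors made by trimming reads with Cutadapt 1.13, aligning them to mm9 with TopHat2 2.0.13 and counting reads per gene with HTSeq-count. The HTSeq version, overlap mode and strand setting are not given in the sources used here. The library kit marks strand. All 8 columns were used (0 left out), mapped to genotype by name. Totals per library ran from 9643711 to 27014858 counts.

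KO and WT (4 each) were compared by the quasi-likelihood test of edgeR 4.0.16, after TMM scaling and filterByExpr, on all 12699 genes passing the filter, with Benjamini-Hochberg adjustment over them. SEs were derived from the log2 fold change and its F statistic. Alternatives were DESeq2 1.42.0, its size factors in edgeR, no count filter, at least 10 counts in every library, and each library left out. The edgeR step was tested on simulated data. Members and lists were chosen with earlier results of these data known. Members named with full values are standard cycle markers, those with an unadjusted p under 0.05 in either tool or without overlap, and in each role group the largest fold change and the highest mean count. From other lists, up to 4 genes per direction with the smallest unadjusted p are named. Older symbols were matched through RefSeq synonyms, and exon lengths come from GENCODE vM1. No tests were run on list summaries. Some marker genes are not reported here. No pair of replicates agreed within sampling noise (smallest chi-square per degree of freedom 5.36).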

Additional observations from a re-analysis of the deposited data

Results flagged for a closer look

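Dixon's test for a sample far from the other 3 of its genotype picked out 2 values. Mcm5 was at 537 normalized counts in WT R4, below the other WT libraries at 787 to 820.5. Mcm6 was at 1412 in KO R4, below the other KO libraries at 1631 to 1635. The test was run on 90 groups of 4 libraries (the 41 members and the median deviations of the 4 role groups, in each genotype), where chance alone would pick about 4.5.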

How the results depend on the processing

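The number of members lower in the KO at an unadjusted p under 0.05, 1 in edgeR, was 2 with DESeq2, 0 with DESeq2 size factors in edgeR, 0 with at least 10 counts in every library, and 1 with no filter. Leaving out each library in turn gave 0 to 20 lower members, 0 to 1 higher members and 0 to 9 members without overlap between genotypes; the largest counts came without WT R4. At an adjusted p under 0.05 the count was 0 in every alternative run, with smallest adjusted p from 0.174 (edgeR, without WT R4) to 0.996 (edgeR, without WT R3). The median log2 fold changes of the 4 role groups kept their sign in all 12 alternatives. Among the 14 members given in full and Cdk1, 4 genes with values near 0 changed sign when a library was left out: over these fits the log2 fold change ran from -0.112 to 0.0903 for Cdk1, from -0.0728 to 0.0557 for Cdkn1b, from -0.119 to 0.0283 for Cdk4 and from -0.101 to 0.0497 for Mcm7. The other 11 kept theirs.

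No paired analysis was possible because each library is named by genotype and number alone, with no litter, sex or embryo. Neither litter nor sex entered the fit, so an effect of either was not separated from the spread between libraries. With 4 libraries per genotype the SEs of the mitosis genes were 0.14 to 0.21 on the log2 scale.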
